A study of Mus musculus with 8 samples.

Results

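Immediate early genes of the mouse brain were followed with age in long-read RNA sequencing data. The genes were Fos, Jun, Junb, Jund, Egr1, Nr4a1, Arc, Ier2, Btg2 and Dusp1. They are the rows of the gene count matrix whose Ensembl identifier carries one of these symbols, and all 10 were found among its 22430 genes. The RNA came from 1 whole brain hemisphere of each of 8 male mice of the inbred strain C57Bl/6JRj. Of these, 4 were young adults of 6 months (6m) and 4 were aged mice of 24 months (24m). No treatment, stimulus or altered allele is given for either age, so the ages are the only groups and the young mice serve as the reference. Each mouse gave 1 library, sequenced with Oxford Nanopore (ONT) direct RNA sequencing, and the values are raw reads counted per gene. In the direct RNA protocol of the study's methods, poly(A) RNA molecules are read themselves without amplification, whereas the sample labels name a directional poly(A) kit for cDNA, so amplification and strand of these libraries are not settled. A hemisphere holds all brain regions and cell types, so fewer cells of a type and less RNA per cell cannot be told apart in any value below.

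Immediate early genes are switched on within minutes of a stimulus, such as synaptic activity in neurons or a growth factor or stress in many cell types, from transcription factors that are already in place. Calcium and kinase signals reach factors such as CREB, which binds the cyclic AMP response element (CRE) in their promoters, and SRF, which binds the CArG box. Many of these mRNAs are short-lived and carry AU-rich elements in their 3′ untranslated region (3′UTR), and many of their proteins are transcription factors that turn on a slower wave of late response genes. In brain, Fos, Egr1 and Arc are widely used as marks of recently active neurons.

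The promoters were searched for the sites by which these genes are described as a class. The 8-base CRE TGACGTCA, searched in the 250 bases before the transcript start, was present in Jund, Ier2, Btg2 and Dusp1, which are 4 of the 10 genes, against 2.17% of the 9321 promoters of tested protein-coding genes. Its shorter core TGACG, searched on both strands and contained in every full CRE, was present in 8 of the 10 and in 23.7% of all these promoters. The CArG box, searched on both strands, was in none of the 10 windows and in 1.22% of all. Below are the 150 bases before the start of 4 genes, read from GRCm39 at the start sites of GENCODE vM39 and written 5′ to 3′ on the gene's strand, with the CRE and its core in capitals, as TGACG or, on the other strand, CGTCA. They are Fos (chr12:85520508-85520657, plus strand), Ier2 (chr8:85389484-85389633, minus strand), Dusp1 (chr17:26727494-26727643, minus strand) and Arc (chr15:74544420-74544569, minus strand).
Fos: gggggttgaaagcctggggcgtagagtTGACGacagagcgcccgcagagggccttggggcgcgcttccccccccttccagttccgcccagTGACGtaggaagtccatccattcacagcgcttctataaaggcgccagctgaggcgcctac
Ier2: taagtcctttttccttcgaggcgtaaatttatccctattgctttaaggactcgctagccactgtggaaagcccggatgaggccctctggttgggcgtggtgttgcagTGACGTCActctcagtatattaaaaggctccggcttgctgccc
Dusp1: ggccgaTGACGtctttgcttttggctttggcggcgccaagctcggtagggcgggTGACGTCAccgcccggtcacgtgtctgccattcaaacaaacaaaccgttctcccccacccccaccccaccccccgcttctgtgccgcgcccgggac
Arc: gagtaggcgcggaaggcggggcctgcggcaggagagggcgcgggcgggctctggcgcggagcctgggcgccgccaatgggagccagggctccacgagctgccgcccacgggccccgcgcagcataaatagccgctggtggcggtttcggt

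Fos held a core on its own strand that began 123 bases and another that began 60 bases before the start, whereas the full CRE of Ier2 began 43 bases and that of Dusp1 96 bases before it. Arc, the gene with the age difference described below, and Jun held neither the CRE nor its core in the 250 bases. A match in letters is not a binding site, and the absence of one in this window says nothing about sites elsewhere. For Egr1 the window lies before a start with a 5′ untranslated region of 1666 bases, which was not searched.

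The 3′UTRs were searched for the AU-rich core ATTTA, and the median of the 10 genes was 2.75 per kb against 1.11 per kb over 9189 tested protein-coding genes, with 8 of the 10 above that median. The longer form TATTTAT was present in 5 of the 10, namely Fos, Jun, Jund, Btg2 and Dusp1, and in 28.0% of the tested genes. Dusp1 had the densest ATTTA, at 5.8 per kb, while Arc and Ier2 had none in 3′UTRs of 1668 and 755 bases. To show what the element looks like, 30-base windows follow from Fos (chr12:85523877-85523906, plus strand), Dusp1 (chr17:26725132-26725161, minus strand) and Jund (chr8:71153008-71153037, plus strand), with TATTTAT in capitals.
Fos: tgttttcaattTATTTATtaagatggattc
Dusp1: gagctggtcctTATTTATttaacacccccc
Jund: cgattccgcccTATTTATgtttctactcgg

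The genes are also compact. All 10 have fewer exons in the canonical transcript than the tested median of 9, from 1 in Jun, Junb, Jund and Ier2 to 7 in Nr4a1, and their transcripts are 1524 to 4496 bases long, with a median of 2331 against 3128. Exons of 6 of the 10 overlap exons of a gene on the opposite strand, and none overlap another gene on the same strand. Junos covers 528 bases of the Jun transcript, Gm11175 covers 877 bases of Jund, Prdx2 and Gm65321 together cover 77 bases of Junb, and Gm31974 covers 120 bases of Btg2. The strand setting of the counting is not given in the sources used here, so reads of these partners cannot be told apart from those of the members. The overlaps of Nr4a1 with Gm63180 and of Dusp1 with Ergic1 lie outside the canonical transcripts but in other annotated exons of these genes. Where counting used all exons of a gene, the same limit holds for them.

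Depth was shallow, and it decides which of the 10 genes can be read. Counts on genes added up to 573152 to 843706 per library at 6m and to 660398 to 1255424 at 24m. Levels are given as CPM, the usual depth-scaled read count, with library sizes scaled by edgeR's TMM factors, on which 3 counts, taken here as the limit of a count of 0, correspond to 3.69 to 5.42 CPM at 6m and 2.30 to 4.57 CPM at 24m. The first principal component separated the ages, and the second set 24m replicate 1 apart, at 38.4 against -17.5 to 7.48 in the other 7 libraries. In 24m replicate 1 the mean length of the canonical transcript per count was 2485 bases, within the 2472 to 2508 bases of the 6m libraries and under the 2582 to 2627 bases of the other 24m libraries. Its mitochondrial share of counts, 6.48%, was the lowest of the 8. Its part in the results was tested only by leaving it out, and members' values without it are given where it moved them most.

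Of the 10 genes, 9 had a mean count over 5 and entered edgeR's quasi-likelihood test of 24m against 6m, fitted over 9375 genes. Arc rose at 24m, 0 members fell, and the other 8 did not pass the test. A gene was called changed where the p adjusted by Benjamini-Hochberg did not exceed 0.05 and the log2FC, the log2 of the ratio of 24m to 6m, was 0.58 or more in size. At an unadjusted p under 0.05, 2 members were higher (Arc and Egr1) and 0 lower, and DESeq2 on raw or on quantile-normalized counts also called 1 higher and 0 lower. Over all tested genes, 14.5% were changed and 10.3% were changed and higher at 24m, so 1 of 9 is near the background. The median log2FC of the 9 genes was 0.07 against -0.003 over all tested genes, and their median absolute log2FC was 0.101 against 0.317. Only Arc had libraries that did not overlap between the ages, against 21.1% of all tested genes.

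**Figure D1:**
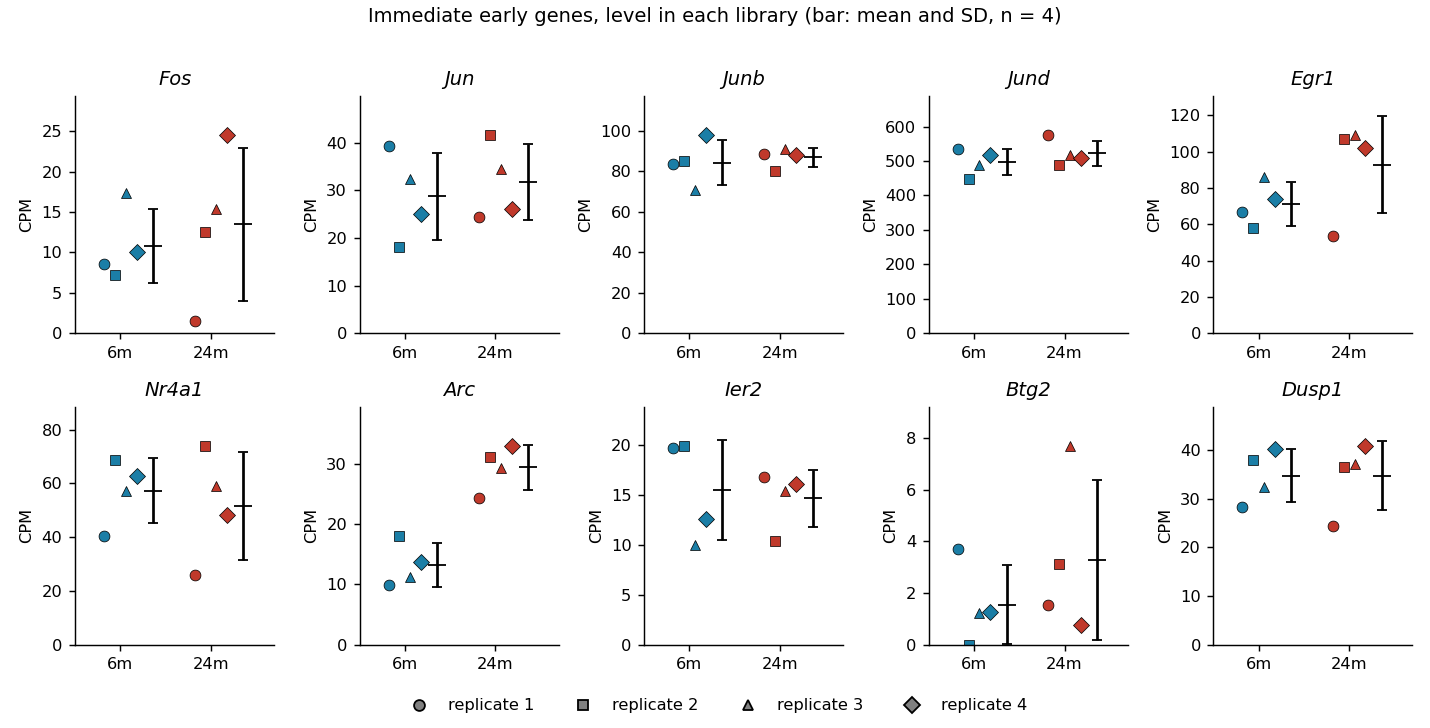
Level of each immediate early gene in each library, in TMM-scaled CPM (vertical axes, each starting at 0), at 6m (blue) and 24m (red), with the symbol giving the replicate number and the bar the mean and SD of 4 libraries. Arc is the gene whose 24m libraries all lie above its 6m libraries, and the 24m circle, replicate 1, lies lowest of its age in Fos, Jun, Egr1, Nr4a1, Arc and Dusp1.

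The AP-1 transcription factors were described first. AP-1 is a dimer of a Fos and a Jun protein, or of 2 Jun proteins, that binds the promoters of many late response genes. Fos (ENSMUSG00000021250, chromosome 12, 85520658 to 85524047) was read at the edge of the depth, with 7, 4, 14 and 8 counts in the 6m libraries and 1, 12, 12 and 32 counts in the 24m libraries. As levels, these were 8.62, 7.23, 17.4 and 10 CPM at 6m and 1.52, 12.5, 15.4 and 24.5 CPM at 24m. Both the lowest and the highest library were aged, and the ages overlapped. The log2FC was 0.41 (SE 0.427, 95% interval -0.46 to 1.29, adjusted p = 0.532 by edgeR's quasi-likelihood test), an interval wide enough to hold a rise of more than the 0.58 used as the limit of change. Leaving out single libraries moved the log2FC of Fos from -0.08, without 24m replicate 4, to 0.75, and it was 0.71 without 24m replicate 1, with no call in any of these fits.

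Jun, the main partner of Fos in AP-1 (ENSMUSG00000052684, chromosome 4, 94937271 to 94940459), was at 39.4, 18.1, 32.4 and 25.1 CPM at 6m and at 24.4, 41.6, 34.6 and 26.1 CPM at 24m. Of the 24m libraries, 3 lay within the range of the 6m libraries and 1 just above it. Its log2FC was 0.10 (SE 0.239, 95% interval -0.39 to 0.60, adjusted p = 0.803 by the same test), and it turned to -0.02 without 6m replicate 2 and to -0.06 without 24m replicate 2. Without 24m replicate 1 it was 0.19.

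Junb, a Jun protein that often acts more weakly than Jun on shared targets (ENSMUSG00000052837, chromosome 8, 85701113 to 85705359), was at 83.7, 85.0, 70.9 and 97.9 CPM at 6m and at 88.4, 80.1, 90.9 and 88.2 CPM at 24m. All 24m values fell within the span of the 6m values, and the mean was 84.4 ± 11 CPM (SD, n = 4) at 6m and 86.9 ± 4.71 CPM at 24m. The log2FC was 0.04 (SE 0.144, 95% interval -0.26 to 0.34, adjusted p = 0.878 by edgeR's quasi-likelihood test).

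Jund, the Jun protein that most tissues make without a stimulus (ENSMUSG00000071076, chromosome 8, 71151599 to 71153265), had the highest level of the 10 genes, at 534, 448, 488 and 517 CPM at 6m and at 575, 489, 517 and 510 CPM at 24m. It supplied between 55.2% and 68.8% of all counts on the 10 genes in a library. The ages overlapped, and with the most counts the interval was the narrowest of the 9, at a log2FC of 0.07 (SE 0.0907, 95% interval -0.12 to 0.25, adjusted p = 0.648 by edgeR's quasi-likelihood test). A change as large as the 0.58 limit lies outside the intervals of both Jund and Junb.

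The zinc finger protein Egr1 and the orphan nuclear receptor Nr4a1 are transcription factors outside AP-1. Egr1 (ENSMUSG00000038418, chromosome 18, 34992876 to 34998049) was at 66.5, 57.9, 85.9 and 74.1 CPM at 6m and at 53.3, 107, 109 and 102 CPM at 24m. In 3 of 4 aged libraries it lay above every young library, and in 24m replicate 1 it lay below every young library. The means were 71.1 ± 11.9 CPM (SD, n = 4) at 6m and 92.8 ± 26.5 CPM at 24m, and the log2FC of 0.40 did not pass the test (SE 0.181, 95% interval 0.02 to 0.77, adjusted p = 0.121 by edgeR's quasi-likelihood test). Without 24m replicate 1, the 24m mean was 106 ± 3.52 CPM, and the log2FC was 0.56 with an adjusted p of 0.00437 in the same test, still under the 0.58 that a call asks for.

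Nr4a1 (ENSMUSG00000023034, chromosome 15, 101151980 to 101172681) was at 40.6, 68.7, 57.3 and 62.8 CPM at 6m and at 25.9, 73.8, 58.9 and 48.3 CPM at 24m. Its lowest value was again that of 24m replicate 1, and the other aged libraries lay on both sides of the young mean. The log2FC of -0.10 (SE 0.216, 95% interval -0.54 to 0.34, adjusted p = 0.784 by edgeR's quasi-likelihood test) became 0.08 without that library and 0.01 when library sizes were used without TMM factors.

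Arc, which encodes a capsid-forming protein of the postsynapse that takes part in the removal of AMPA receptors, is an effector and not a transcription factor. The gene (ENSMUSG00000022602, chromosome 15, 74540932 to 74544419) had 8, 10, 9 and 11 counts in the 6m libraries and 16, 30, 23 and 43 counts in the 24m libraries. Its levels were 9.85, 18.1, 11.2 and 13.8 CPM at 6m and 24.4, 31.2, 29.4 and 33.0 CPM at 24m, so every aged library lay above every young one. The means were 13.2 ± 3.63 CPM (SD, n = 4) and 29.5 ± 3.70 CPM, a 2.32-fold rise in the fit (95% interval 1.60 to 3.36). The log2FC was 1.21 (SE 0.262, adjusted p = 0.00184 by edgeR's quasi-likelihood test).

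The rise of Arc did not rest on 24m replicate 1, in which Arc had its lowest aged value, and without that library the log2FC was 1.29 (adjusted p = 0.000635 in the same test). Arc passed in 16 of 16 alternative analyses, with a log2FC of 1.02 to 1.37 and an adjusted p of 0.000367 to 0.0307 (edgeR or DESeq2). No exon of another annotated gene overlaps Arc, and no transcript of another gene matched the Arc transcript at an identity of at least 95% over at least 50% of its length.

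**Figure D2:**
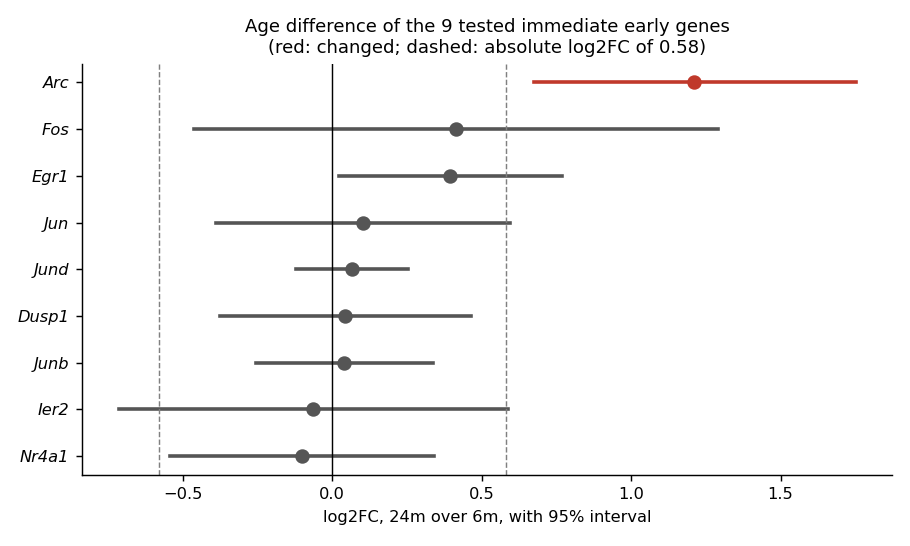
Log2FC of 24m over 6m (horizontal axis) for the 9 tested immediate early genes, as points with 95% intervals from edgeR's quasi-likelihood test, 4 libraries per age, with dashed lines at an absolute log2FC of 0.58. The interval of Arc, 0.67 to 1.75, lies above 0.58, whereas those of Fos, Egr1, Jun and Ier2 reach past a dashed line and those of Jund, Junb, Nr4a1 and Dusp1 stay inside.

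Ier2, a small nuclear protein of the same rapid response (ENSMUSG00000053560, chromosome 8, 85387960 to 85389483), was at 19.7, 19.9, 9.96 and 12.6 CPM at 6m and at 16.8, 10.4, 15.4 and 16.1 CPM at 24m. All aged values lay between the lowest and the highest young value. The log2FC was -0.06 (SE 0.317, 95% interval -0.71 to 0.59, adjusted p = 0.913 by edgeR's quasi-likelihood test), and its sign turned to 0.04 when library sizes were used without TMM factors.

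Btg2, an antiproliferative protein that recruits the machinery of mRNA deadenylation (ENSMUSG00000020423, chromosome 1, 134002908 to 134015033), was at the count limit and was not tested in the fit. It had 3, 0, 1 and 1 counts in the 6m libraries and 1, 3, 6 and 1 counts in the 24m libraries, at or under 3 counts in 7 of 8 libraries. The levels were 3.69, 0, 1.24 and 1.26 CPM at 6m and 1.52, 3.12, 7.68 and 0.767 CPM at 24m, and 1 aged library was above the limit. No fold is given at these counts, and an exact two-sided permutation test of the CPM gave p = 0.429, where 0.029 is the smallest value that 4 against 4 libraries allow. No difference with age was therefore detected, which at this depth does not show that there was none.

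Dusp1, a nuclear phosphatase that switches off MAP kinases and so ends the signal that induced it (ENSMUSG00000024190, chromosome 17, 26724564 to 26781102), was at 28.3, 38.0, 32.4 and 40.2 CPM at 6m and at 24.4, 36.4, 37.1 and 40.7 CPM at 24m. The ages shared nearly the same range, with means of 34.7 ± 5.39 CPM (SD, n = 4) and 34.6 ± 7.08 CPM. The log2FC was 0.04 (SE 0.204, 95% interval -0.38 to 0.46, adjusted p = 0.907 by edgeR's quasi-likelihood test), and it was -0.05 with DESeq2 on quantile-normalized counts. Its lowest value, 24.4 CPM, was that of 24m replicate 1, and without that library the log2FC was 0.16, again with no call.

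Divided by transcript length, the members spanned a wide range of levels. Where each long read is a molecule, counts need no such division, so the order below ranks values per kb and not molecules. In undivided CPM, Egr1 had a higher mean than Nr4a1 at 6m and 24m, at 71.1 and 92.8 against 57.3 and 51.7 CPM. Jun likewise lay above Ier2, at means of 28.7 and 31.7 against 15.5 and 14.7 CPM. Over the 8 libraries, the level per kb of canonical transcript was 306 CPM for Jund, 47.3 for Junb, 21.4 for Nr4a1, 18.2 for Egr1, 17.4 for Dusp1, 9.90 for Ier2, 9.47 for Jun, 6.99 for Arc, 5.75 for Fos and 0.879 for Btg2. Per kb, Jund lay above Junb, Junb above Nr4a1, Dusp1 above Ier2 and Fos above Btg2 in 8 of 8 libraries. In 24m replicate 1, Fos and Btg2 had 1 count each, so there only length set them apart. The remaining neighbours in this order changed places between libraries, the upper one being higher in 4 or 5 of 8, so their order per kb is within the spread. Arc stood in place 9 at 6m, with 4.33 CPM per kb, and in place 7 at 24m, with 9.65 CPM per kb. In undivided CPM, the mean of Arc at 6m, 13.2, lay between those of Ier2 (15.5) and Fos (10.8). At 24m its mean, 29.5 CPM, lay between those of Jun (31.7) and Ier2 (14.7). The size of its move in the order thus depends on the division by length.

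The summed level of the 10 genes was 761.2 to 855.2 CPM at 6m and 835.3 to 915.0 CPM at 24m, and the ratio of the means was 1.08. Because of the share of Jund, the sum of the other 9 genes is also given, at 300.3 to 337.8 CPM at 6m and 260.6 to 398.0 CPM at 24m. The lowest value of that sum, 260.6 CPM, was that of 24m replicate 1, and the other 3 aged libraries, at 379.7 to 398.0 CPM, lay above all young ones. The ratio of the means of this sum was 1.13, and 1.23 without that library. With all libraries, the mean rose by 21.7 CPM in Egr1 and 16.3 CPM in Arc. In the other genes of this sum the difference ran from -5.61 CPM in Nr4a1 to 2.92 CPM in Jun. The ratio of 1.13 thus reflects mainly Egr1 and Arc and not all 9 genes.

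Across the genes, 24m replicate 1 was the lowest of the aged libraries in 6 of 10, and below every young library in Fos, Egr1, Nr4a1 and Dusp1. It was also the lowest in 16 of 34 other rapid primary response genes and 9 of 15 late response genes of neurons. In the upstream, feedback and stress lists described below, it was the lowest in 13 of 33, 7 of 25 and 6 of 14 genes. All these lists include genes whose mean count did not exceed 5, as only 17 of the 34 and 13 of the 15 were tested. Of the aged libraries, 24m replicate 1 also had the fewest counts, at 660398. The share over all tested genes was not worked out, so the 6 of 10 is not shown to be particular to the members. Of 7 general neuron markers, 4 had their lowest aged value in this library and 3 their highest, and its sum of 2838 CPM, in an aged range of 2831 to 2853 CPM, hides these opposite deviations. Of 7 cortical and hippocampal excitatory neuron markers, 2 were at their lowest aged value in it and 1 at its highest. Microglia, astrocyte, endothelial, choroid plexus and blood markers had their highest aged sums in it, at 1148, 3183, 938.9, 4340 and 6283 CPM. Single markers did not all follow these sums. Of the 7 astrocyte markers, 3 were at their lowest aged value in this library and 1 at its highest, Aldoc, which gave 2620 CPM of the sum and is named after its values were seen. Of the 9 microglia markers, 5 were at their highest aged value in it and 1 at its lowest, and all 5 blood markers were at their highest. Of the 7 endothelial markers, 3 were at their lowest aged value in it and 2 at their highest. Of the 5 choroid plexus markers, 0 were at their lowest and 3 at their highest. Bsg gave 826 CPM of the endothelial sum and Ttr 4300 CPM of the choroid plexus sum, both also named after their values were seen. None of these markers was at 0 in all libraries, and the part of cell makeup in the members' values was not tested.

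**Figure D3:**
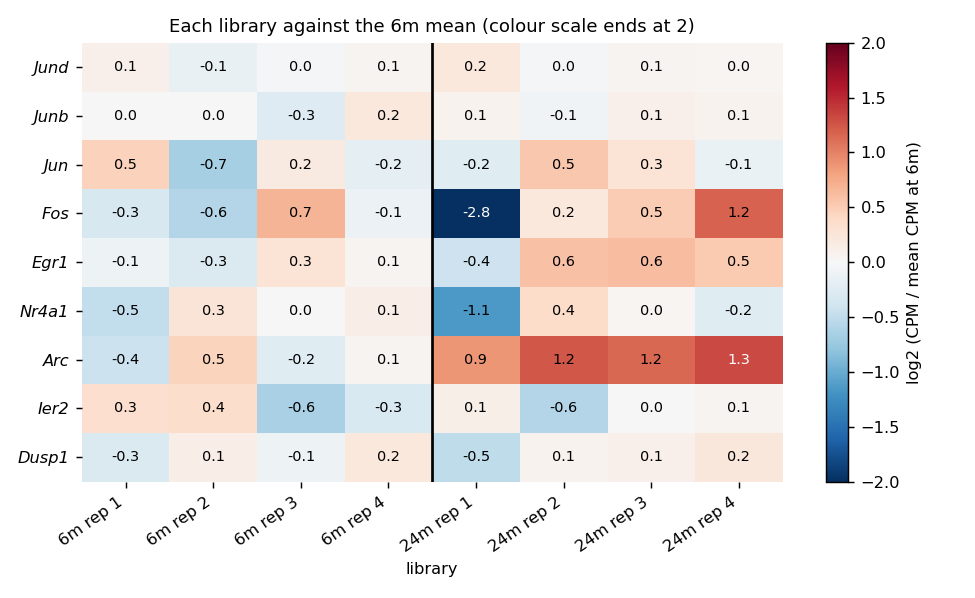
Level of the 9 tested immediate early genes in each library (columns, rep being the replicate) as log2 of the CPM over the mean CPM at 6m, with blue below and red above that mean and a colour scale that ends at 2. Arc is above its 6m mean in all 4 aged libraries, whereas Fos, Egr1, Nr4a1 and Dusp1 are below it in 24m replicate 1.

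The same division can be put as a correlation of levels between libraries, with the mean of each age subtracted. Over the 36 pairs of tested members, Pearson's r over 8 libraries ranged from -0.831 to 0.93 with a median of 0.152, so the members did not vary as 1 block. The genes outside the 10 whose levels most closely followed the mean standardised level of the 9 tested members were Nts, Tmed7, Ndrg4, Zrsr2 and Vegfb, with r from 0.968 to 0.985. They had the highest r of all other tested genes and were picked for it. The members' own r with this mean ran from -0.432 for Jund to 0.882 for Dusp1. Without 24m replicate 1 it ran from -0.385 for Jun to 0.729 for Junb, so the mean does not stand for each member. These are descriptions over 8 libraries that share 1 divergent library. Without 24m replicate 1 the r of the genes outside the 10 fell to between 0.726 and 0.941, highest for Ndrg4. Ndrg4, a cytoplasmic protein abundant in neurons, went from 248 CPM at 6m to 538 CPM at 24m (log2FC 1.12, adjusted p = 3.68e-07 by edgeR's quasi-likelihood test).

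The wider pathway was described with 5 lists of genes, in which Errfi1 stands more than once. In none of the lists is the count a test of the list. Each is read beside the 14.5% of all tested genes that changed and the 10.3% that were changed and higher. Among 17 tested other rapid primary response genes, such as further Egr, Ier and Klf family members, 2 were higher and 1 lower at 24m, with a median log2FC of 0.26. Ier5, a regulator of the heat shock factor Hsf1, rose from 43.3 ± 6.45 CPM (SD, n = 4) to 67.6 ± 9.82 CPM with no overlap between the ages, a log2FC of 0.67 (SE 0.170, adjusted p = 0.00648 by edgeR's quasi-likelihood test). Egr3 and Nfkbia, the other called genes of this list, overlapped between the ages and are named here after their values were seen. Egr3, a relative of Egr1, had 3 to 7 counts at 6m and 3 to 27 counts at 24m, with its lowest aged level, 4.57 CPM, again in 24m replicate 1 (log2FC 1.55, SE 0.444, adjusted p = 0.0145 by the same test). The call on Egr3 was lost in 2 of 16 alternatives, and without 24m replicate 1 its log2FC was 1.80 (adjusted p = 0.000684 by the same test). Nfkbia, the inhibitor of NF-κB, was lower, with a log2FC of -0.60 (SE 0.211, adjusted p = 0.0424 by edgeR's quasi-likelihood test), and was called in only 4 of 16 alternatives, not in the fit without 24m replicate 1 (adjusted p = 0.075).

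Late response genes of neurons are transcribed after the immediate early proteins have been made, and many encode secreted or synaptic proteins. Of 13 tested, 3 were higher and 0 lower at 24m, with a median log2FC of 0.14, and at an unadjusted p under 0.05 in edgeR's test these were 4 and 1. Nptx1, a secreted pentraxin that gathers AMPA receptors at synapses, had 1 to 3 counts in the 6m libraries, all at the count limit, and 4 to 13 counts in the 24m libraries, and the ages did not overlap in CPM. Its adjusted p was 0.0223 by edgeR's quasi-likelihood test, and the call was lost in 3 of the 12 alternatives that gave an adjusted p, namely DESeq2 on raw counts (adjusted p = 0.0905) and the fits without 6m replicate 3 (0.0834) or 6m replicate 4 (0.0607).

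Of 23 tested signalling proteins and transcription factors that act upstream of the immediate early genes, 6 were higher and 0 lower at 24m, with a median log2FC of 0.44, and at an unadjusted p under 0.05 in edgeR's test these were 10 and 4. Ppp3r1, the regulatory subunit of the calcium-dependent phosphatase calcineurin, rose from 43.0 ± 4.25 CPM (SD, n = 4) to 100 ± 20.2 CPM (log2FC 1.26, SE 0.170, adjusted p = 9.53e-06 by edgeR's quasi-likelihood test). Exons of Dnaaf10 on the same strand cover 462 bases of its transcript, and reads of both could have been split or joined in the counting. Mef2d, a transcription factor that responds to calcium, rose from 15.9 ± 4.53 to 37.8 ± 10.1 CPM (log2FC 1.18, SE 0.266, adjusted p = 0.00258 in the same test), and opposite-strand genes cover 543 bases of its transcript. Rps6ka2, a kinase of the RSK family that acts below ERK, rose from 4.64 ± 1.24 to 14.2 ± 5.25 CPM (log2FC 1.56, SE 0.413, adjusted p = 0.00876 in the same test). It had 2 to 5 counts at 6m, and its adjusted p was 0.0629 with DESeq2 on quantile-normalized counts.

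Of 17 tested partners, co-repressors and feedback genes, 3 were higher and 0 lower at 24m, with a median log2FC of 0.36, and at an unadjusted p under 0.05 in edgeR's test these were 7 and 1. Zfp36l2, a protein that binds AU-rich elements and speeds mRNA decay, had 1 to 3 counts in the 6m libraries and 13 or 14 counts in the 24m libraries (adjusted p = 0.000491 by edgeR's quasi-likelihood test). Tob2, a relative of Btg2, had 1 to 3 counts at 6m and 4 to 16 counts at 24m (adjusted p = 0.00552 in the same test). For both, every young library was at the count limit, so no fold is given, and opposite-strand genes cover 106 bases of the Zfp36l2 transcript and 460 bases of that of Tob2.

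Among 11 tested genes of the acute stress and glucocorticoid response, 0 were higher and 1 was lower at 24m, with a median log2FC of 0.26, and at an unadjusted p under 0.05 in edgeR's test these were 2 and 3. Against the 3, 6 and 3 higher genes in the late response, upstream and feedback lists, DESeq2 called 2, 5 and 2 on raw counts and 1, 3 and 1 on quantile-normalized counts. It called 0 lower genes in these lists and 0 higher in the stress list in either form. The lower gene was Hsph1, a chaperone of the Hsp110 family, which fell from 175 ± 16.3 CPM (SD, n = 4) to 107 ± 11.3 CPM with no overlap between the ages (log2FC -0.71, SE 0.125, adjusted p = 0.000287 by edgeR's quasi-likelihood test).

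Over the tested genes of the 5 lists, 14 were higher and 2 were lower at 24m, and without 24m replicate 1 these were 18 and 2. Over all tested genes, 968 of 9375 (10.3%) were higher and 391 lower, and without 24m replicate 1 these were 1132 and 462. The counts of the lists thus rose in that fit as those of all genes did. Sums of cell type markers also moved in the same libraries, some up and some down. The 7 oligodendrocyte markers summed to 2003 to 2574 CPM at 6m and 2777 to 3638 CPM at 24m, with 2 of 7 tested genes higher. The 9 microglia markers summed to 722.5 to 783.6 CPM at 6m and 900.5 to 1148 CPM at 24m, with 1 of 7 tested genes higher, and all 5 blood markers were lower at 24m. Of 6 tested astrocyte markers, 3 were higher and 1 lower, and their sum was 2423 to 2884 CPM at 6m and 2481 to 3183 CPM at 24m. Gfap, the intermediate filament of astrocytes and singled out with its values in view, rose by a log2FC of 1.94 (adjusted p = 5.03e-08 by edgeR's quasi-likelihood test). General neuron markers summed to 2387 to 2533 CPM at 6m and 2831 to 2853 CPM at 24m, with 1 of 7 tested genes higher. Cortical and hippocampal excitatory neuron markers summed to 2767 to 3019 CPM at 6m and 3081 to 4063 CPM at 24m, with 3 of 6 tested genes higher. Cerebellar granule cell markers summed to 75.9 to 184.6 CPM at 6m and 236.2 to 289.0 CPM at 24m, with 3 of 7 tested genes higher. Striatal neuron markers overlapped between the ages, at 913.1 to 1003 CPM and 983.3 to 1161 CPM. Of these, 1 of 7 tested genes was higher, and the median log2FC was -0.02. Endothelial markers summed to 1089 to 1191 CPM at 6m and 801.1 to 938.9 CPM at 24m, with 0 of 4 tested genes called. Choroid plexus markers overlapped, at 2810 to 4216 CPM and 2179 to 4340 CPM, with 0 of 2 called. The part of these markers' cells in the rise of Arc was not tested.

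**Figure D4:**
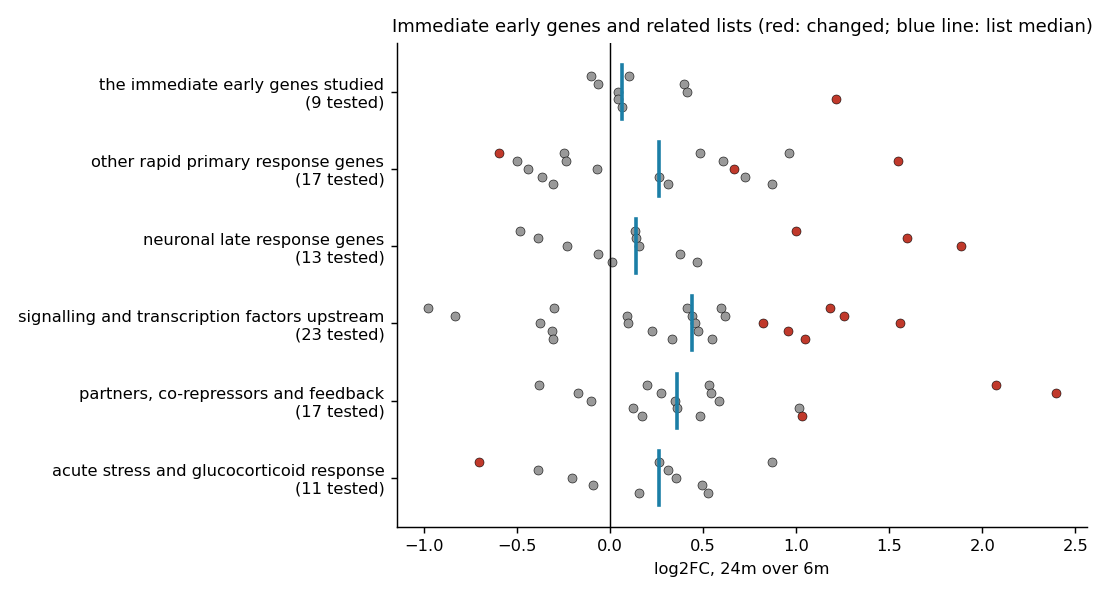
Log2FC of 24m over 6m (horizontal axis) of each tested gene in the immediate early genes studied and in the 5 related lists, with changed genes in red (edgeR's quasi-likelihood test), other genes in grey and the list median as a blue line. The medians lie between 0.07 and 0.44, and red points lie on the right in all but Nfkbia and Hsph1.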

How the data were processed

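The deposited values are raw counts per gene, which the authors made by mapping reads of 8 ONT direct RNA libraries to GRCm39 with minimap2 2.24 (per the labels) and counting with featureCounts on Ensembl release 103. The labels name a directional poly(A) cDNA kit, unlike the study's methods, which were followed. The authors' later filter and normalization are not part of these values. GENCODE vM39, of the same build, matched 22281 of 22430 genes by identifier. The other 149 stayed in the tests.

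Genes whose mean count exceeded 5 were tested with edgeR 4.0.16 in R 4.3.3 (quasi-likelihood, TMM, age as the only term, Benjamini-Hochberg). Alternatives were DESeq2 1.42.0 on raw or quantile-normalized counts, other scalings and filters, mitochondrially encoded genes left out, a replicate block and each library left out. The code of the tests was also run on simulated counts. These had the same dispersion for every gene and no divergent library, so that run does not bear on the results here. Copies were sought with BLAST+ 2.17.0. The motif windows and AU-rich windows came from GRCm39. Log2 CPM for the principal components and correlations used a prior count of 2.

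Members and lists were chosen with earlier results of these data known. Named were all 10 members, the called list genes without overlap between ages (at most 3 per direction and list, by log2FC), and the 5 other genes with the highest r to the members' mean. Each library is 1 mouse. The limit of 3 counts covers counting error only, whereas the intervals of the log2FC come from edgeR's quasi-likelihood fit.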

Additional observations from a re-analysis of the deposited data

Results flagged for a closer look

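In 26 sets of 4 libraries of 1 age (library totals, member levels and their sums), the gap between the outermost library and its nearest neighbour, divided by the range, passed Dixon's 95% critical value in 2, where chance alone passes about 1.3. For Egr1 at 24m the ratio was 0.878, with 53.3 CPM in replicate 1 and 102 to 109 CPM in the other aged libraries. For total counts at 6m it was 0.909, with about 573000 counts in replicate 2 and 819000 to 844000 in the other young libraries. In that shallow library 3 counts correspond to 5.42 CPM.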

How the results depend on the processing

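Arc was the only changed member in the main fit and in all 16 alternatives, including each of the 8 fits that left out 1 library (1 to 1 members). Of 144 alternative values of single members, none changed whether its gene was called, and 14 had the other sign, all in genes not called. Single limits were crossed, however. Fos passed the log2FC limit alone without 6m replicate 3 (0.75) and without 24m replicate 1 (0.71). Egr1 passed the limit of the adjusted p alone without 24m replicate 1 (adjusted p = 0.00437 by edgeR's quasi-likelihood test). Changed genes overall numbered 1359 (968 higher, 391 lower), 834 with DESeq2 on raw counts, 824 with DESeq2 on quantile-normalized counts and 989 to 1594 with 1 library left out. With library sizes alone there were 1218 higher and 223 lower, and the median log2FC of all tested genes moved from -0.003 to 0.10. Called genes in the related lists numbered 16, 7 with DESeq2 on quantile-normalized counts and 12 to 20 with 1 library left out. The ratio of summed member levels was 1.08, 1.16 with library sizes alone and 1.06 to 1.10 with 1 library left out. The causes of these shifts were not tested.

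Replicate numbers did not pair the samples, since deviations of same-numbered libraries correlated at 0.0647, -0.0101, 0.0051 and -0.16, and only number 1 correlated best with its own number. With a replicate block, 1308 genes were changed, 14 in the related lists and 1 among the members, Arc, at a log2FC of 1.17 (adjusted p = 0.00211 by edgeR's quasi-likelihood test).

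Depth limits Btg2, which could not be read at either age, and leaves Fos, Ier2 and the called gene Arc with 95% intervals over 1 log2 unit wide.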
